A study of Mus musculus with 8 samples.

Results

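The transcriptome of the normal mouse prostate was described from the 3 bulk RNA-seq libraries that the labels call WT, out of 8 libraries in the series. The other libraries, made from prostatic intraepithelial neoplasia and from prostate tumors, were not analysed here. The study examined a human androgen receptor transgene (hARtg) that is switched on by Cre recombinase in cells that express Osr1 or descend from them. The study gives the WT genotype as R26mTmG/+:Osr1Cre/+, which lacks hARtg but carries a Cre driven by the Osr1 locus and a Cre-dependent fluorescent membrane reporter, so the controls are not free of engineered alleles. The animals were on a mixed background of C57BL/6 and 129S1/SvImJ and were matched in age to the diseased mice, and the ages of the WT mice behind these libraries are not given in the sources used here. The sources do not name the prostate lobes taken. Bulk RNA-seq averages over all cells of the tissue, so fewer cells of a type and less RNA per cell cannot be told apart in any value below.

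The mouse prostate is a set of paired lobes around the urethra in which tall luminal cells secrete proteins into glandular ducts, under the control of androgens acting through the androgen receptor. A thin layer of basal cells lies beneath the luminal cells, and smooth muscle and fibroblasts surround each duct. Secreted proteins pass through the endoplasmic reticulum (ER), where chaperones fold them and disulfide isomerases link their cysteines. The seminal vesicles, which add their own proteins to semen, lie against the prostate.

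Total counts on genes were 21751803 in WT 1, 29291474 in WT 2 and 29730420 in WT 3. Of 27036 genes in the table, 11544 exceeded 1 CPM (counts scaled to the same library total) in every library, and 7647 had no count in any. The numbers over 1 CPM were 13326, 11741 and 12733 in WT 1, WT 2 and WT 3. At the depth of WT 1, 16472 genes of WT 2 and 17452 of WT 3 would be expected to hold a count, against 18304 in WT 1, so WT 2 kept the lowest number at equal depth. At these depths 3 counts correspond to 0.138, 0.102 and 0.101 CPM, and a gene listed at 0 could lie anywhere below that. Intervals and limits of this kind cover counting error only.

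A pair of libraries stood apart in some genes. WT 1 held large amounts of seminal vesicle, fat and some prostate secretory transcripts that were far lower in the others. WT 2 held more chaperone and simple-epithelial keratin transcripts and fewer stromal transcripts. The label of WT 1 starts with a number far from those of WT 2 and WT 3, which follow each other. The labels do not say what these numbers mean. If they mark batches, a difference between batches and a difference between animals or dissections cannot be told apart with 1 library on one side. The labels do not say how the tissue was divided, so the spread between libraries may be partly technical.

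Promoter sequences are shown for genes on which the description turns, the 2 most abundant secretory genes by TPM (counts divided by exon length, then scaled to the same total) and 4 ER genes that were highest in WT 2, taken from those that hold the motif shown. They are the 250 bases before the annotated start in RefSeq, 5′ to 3′ on the strand of the gene. In the first pair the capitals mark AGAACA, the core element recognised by the androgen receptor and related steroid receptors.
9530053A07Rik (GRCm38.p6, chr7:28129216-28129465, + strand): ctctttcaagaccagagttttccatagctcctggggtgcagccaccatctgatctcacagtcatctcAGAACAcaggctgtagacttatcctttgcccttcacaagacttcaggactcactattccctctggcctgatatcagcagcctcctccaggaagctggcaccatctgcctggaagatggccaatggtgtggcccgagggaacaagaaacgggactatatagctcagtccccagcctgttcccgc
Pbsn (GRCm38.p6, chrX:77853501-77853750, - strand): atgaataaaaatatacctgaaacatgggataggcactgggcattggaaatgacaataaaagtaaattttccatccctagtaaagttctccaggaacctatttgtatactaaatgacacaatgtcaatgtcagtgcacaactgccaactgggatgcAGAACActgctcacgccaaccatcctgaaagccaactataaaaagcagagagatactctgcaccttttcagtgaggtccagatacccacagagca
In the next set the capitals mark the ER stress response element (ERSE), which is CCAAT, any 9 bases and then CCACG, read on either strand. It is known as a binding sequence of the factors that raise chaperone transcription when unfolded protein builds up.
Hspa5 (GRCm38.p6, chr2:34771840-34772089, + strand): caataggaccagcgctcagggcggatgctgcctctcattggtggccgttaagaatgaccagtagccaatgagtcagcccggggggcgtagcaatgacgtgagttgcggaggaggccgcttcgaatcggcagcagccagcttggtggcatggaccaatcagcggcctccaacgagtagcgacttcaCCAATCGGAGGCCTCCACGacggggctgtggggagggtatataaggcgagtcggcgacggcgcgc
Hsp90b1 (GRCm38.p6, chr10:86705445-86705694, - strand): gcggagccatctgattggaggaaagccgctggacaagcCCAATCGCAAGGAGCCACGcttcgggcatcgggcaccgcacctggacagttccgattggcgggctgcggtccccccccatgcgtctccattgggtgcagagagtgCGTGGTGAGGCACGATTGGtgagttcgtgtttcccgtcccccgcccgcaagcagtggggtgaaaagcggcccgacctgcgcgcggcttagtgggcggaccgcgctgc
Creld2 (GRCm38.p6, chr15:88819396-88819645, + strand): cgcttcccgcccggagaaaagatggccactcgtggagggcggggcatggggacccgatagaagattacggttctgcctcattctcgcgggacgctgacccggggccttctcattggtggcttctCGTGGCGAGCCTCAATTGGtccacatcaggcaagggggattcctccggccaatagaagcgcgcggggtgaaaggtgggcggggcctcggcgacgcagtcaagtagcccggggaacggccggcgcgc
Dnajc3 (GRCm38.p6, chr14:118937682-118937931, + strand): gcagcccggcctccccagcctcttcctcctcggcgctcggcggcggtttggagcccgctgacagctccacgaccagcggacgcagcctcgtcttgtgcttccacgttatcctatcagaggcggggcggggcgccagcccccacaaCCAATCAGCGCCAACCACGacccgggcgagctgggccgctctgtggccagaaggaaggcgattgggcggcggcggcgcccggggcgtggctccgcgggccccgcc
The window of Hsp90b1 holds the element 2 times, once on each strand. AGAACA occurred on either strand in 16.1% of 32851 RefSeq promoters of this length, and ERSE in 0.113%. A match describes the letters of the window and is neither a shown binding site nor a cause of any level.

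Few genes held much of the normal prostate transcriptome. Counts from 318 genes added up to 50% of the mean profile, with 305, 274 and 317 genes needed in WT 1, WT 2 and WT 3. By TPM 246 genes reached the same share of the mean profile, with 231, 178 and 295 in the 3 libraries. The top 20 genes held 32.3% of counts and 29.2% of TPM, and the top 1000 held 63.8% and 66.7%. Genes over 1000 CPM numbered 52, 59 and 53, and 38 genes passed that level in every library. Protein-coding genes took 99.3% ± 0.135 of counts (SD, n = 3), processed noncoding transcripts 0.4002% ± 0.0831 and lincRNA 0.217% ± 0.0474.

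**Figure D1:**
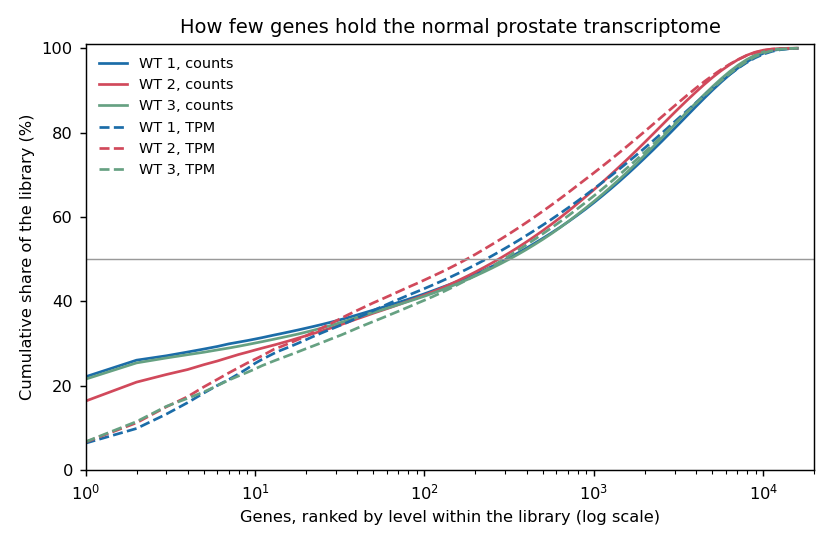
Cumulative share of each WT library (vertical axis, %) held by its genes ranked from the most abundant (horizontal axis, number of genes, log scale), as counts (solid lines) and as TPM (dashed lines), with a grey line at 50%. The count curves start at 22.1%, 16.4% and 21.6% with the first gene, and the TPM curves start between 6.38% and 6.71%.

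A secretory gene led the mean profile on either scale, although Pbsn led by TPM in WT 2. 9530053A07Rik (ENSMUSG00000078776, mm9 chr7:28914485-28949830, plus strand), which RefSeq lists with the synonym FCGBP, the name of an IgG Fc binding protein of mucus, took 22.1%, 16.4% and 21.6% of counts in WT 1, WT 2 and WT 3. Its exons add up to 11843 bases, against a median of 3839 for the genes over 1 CPM in every library, so its share by TPM was lower, at 63808, 45755 and 67101 TPM or 5.89% of the mean profile. Tgm4 (ENSMUSG00000025787), the prostate transglutaminase that cross-links semen proteins into the copulatory plug, took 3.93%, 4.50% and 3.86% of counts and stood at 34119, 37885 and 36127 TPM. These Tgm4 values lay close together in all 3 libraries (36044 ± 1885 TPM, SD, n = 3). Pbsn (ENSMUSG00000000003), which encodes probasin, an androgen-dependent secreted lipocalin, stood at 23071, 66338 and 47899 TPM. WT 1 was lowest and WT 2 highest for Pbsn, with WT 3 between them, a spread far wider than that of Tgm4.

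The choice of scale changed which genes ranked high. The 20 leading genes by counts and the 20 by TPM shared 15. Median exon length was 2239 bases in the first group and 1261 in the second, and across the genes over 1 CPM in every library the Spearman correlation of mean count with mean TPM was 0.866, a description over genes that share libraries and depth. The genes that lead by TPM alone include B2m, the light chain of MHC class I molecules, at 5836, 4304 and 4897 TPM, and Fth1, the heavy chain of ferritin, at 3630.0, 3871 and 4597 TPM. The genes that lead by counts alone include Dnajc10, an ER reductase that opens wrong disulfide bonds, with 0.308%, 0.313% and 0.365% of counts from 5004 exon bases, and Eef2, the elongation factor that moves the ribosome along mRNA, with 0.358%, 0.392% and 0.306%. Both of these held closely similar shares in the 3 libraries.

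**Figure D2:**
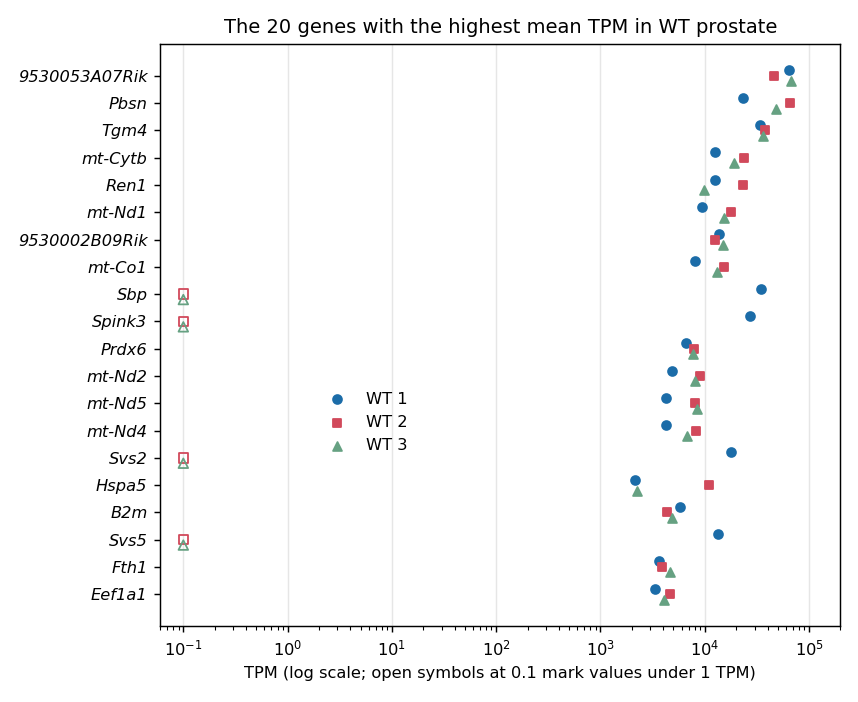
TPM (horizontal axis, log scale) of the 20 genes with the highest mean TPM in WT 1, WT 2 and WT 3 (points), with values under 1 TPM drawn as open symbols at 0.1. Most genes lie within a narrow band, whereas Sbp, Spink3, Svs2 and Svs5 are high in WT 1 alone and Hspa5 is high in WT 2.

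Prostate secretory genes took the largest share of TPM of any list. The list of 22 prostate secretory genes summed to 28.9%, 23.9% and 27.1% of counts in WT 1, WT 2 and WT 3, with a mean of 26.6% ± 2.504. The same list took 18.4% ± 2.37 of TPM, of which 9530053A07Rik made up 32.1%. By library the TPM shares were 21.02%, 17.7% and 16.4%, highest in WT 1. Without 7 members that were over 2-fold higher in WT 1 than in both others (Msmb, Sbpl, Sbp, Spink3, Pate4, Ceacam10 and Defb50), a choice made after their values were seen, the shares were 13.6%, 17.6% and 16.4% of TPM, lowest in WT 1, and 27.4%, 23.9% and 27.1% of counts. Only 10 of the 22 genes exceeded 1 CPM in every library, and 17 did so in at least 1. Ren1, which encodes the protease renin, stood at 12549.6, 23487 and 9893 TPM, highest in WT 2. Mice of 129 descent carry a near-identical second renin gene, so reads from it could be counted as Ren1 and this level is uncertain. 9530002B09Rik, listed by RefSeq with the synonym Vpp1 and in no list here, stood at 13699.8, 12482 and 15026 TPM and varied little.

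Other secreted products had lower levels. Mmp7, a matrix metalloproteinase of glandular epithelium, stood at 1514, 1451 and 1317 TPM, with similar values in all libraries. Azgp1, a secreted zinc-binding glycoprotein regulated by androgens, stood at 1058, 718 and 718 TPM. Defb50, a prostate beta-defensin, stood at 2497, 625 and 823 TPM, highest in WT 1. Spink8, a Kazal-type protease inhibitor, was lowest there, with 85.8, 263 and 416 TPM. Among 65 antimicrobial and whey acidic protein genes, which overlap the secretory list, 5 passed 1 CPM in every library and 35 had no count in any. Defb1, an epithelial beta-defensin, stood at 486, 1173 and 611 TPM, and Lcn2, which binds bacterial siderophores, at 19.6, 7.37 and 13.3 TPM.

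Several genes linked to semen elsewhere were near 0. Of 27 kallikrein genes, the family that holds human PSA, none exceeded 1 CPM in any library and 16 had no count at all. Klk8 was the highest of them, with 12, 3 and 6 counts. The secretory genes Bpifa2, Sval1, Sval3 and Crisp3 had no count in any library. Acpp, prostatic acid phosphatase, was low and uneven, at 6.01, 0.124 and 5.36 TPM, and WT 2 held only 8 counts.

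The folding and export machinery was abundant beside the cargo. All but 2 of 57 ER folding and translocation genes passed 1 CPM in every library, and together they took 2.48%, 5.03% and 2.49% of counts in WT 1, WT 2 and WT 3. Hspa5, the main ER chaperone BiP, stood at 2137, 10984 and 2224 TPM, Calr, the lectin chaperone calreticulin, at 2602, 3692 and 2633 TPM, and Hsp90b1, the ER form of HSP90, at 1423, 4503 and 2057 TPM. WT 2 was highest in each, and for Hspa5 WT 1 and WT 3 lay close together. The disulfide isomerases P4hb and Pdia6 were steadier, with 2279.5, 2684 and 2299.9 TPM for P4hb and 1811, 1766 and 1484 TPM for Pdia6. Tram1, a part of the translocation channel, was at 524, 531 and 533 TPM. The Golgi and vesicle transport list held 0.861%, 0.994% and 0.8403% of counts, with 36 of 37 genes over 1 CPM in every library and with Tmed3, a p24 cargo receptor, leading at 1979, 1404 and 1199 TPM.

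Protein synthesis and mitochondrial genes formed other large groups. The 86 cytosolic ribosomal protein genes took 1.65% ± 0.311 of counts but 4.703% ± 0.734 of TPM, since their transcripts are short. Rpl4 led them at 2735, 4608 and 3807 TPM. Ribosomal protein genes have many processed copies in the genome, so single values depend on how shared reads were counted. Translation factors took 1.77% ± 0.273 of counts, led by Eef1a1 (3297, 4687 and 4045 TPM), which brings aminoacyl-tRNA to the ribosome.

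The 13 genes of the mitochondrial genome took 4.36%, 8.34% and 7.15% of TPM in WT 1, WT 2 and WT 3. mt-Cytb, a subunit of respiratory complex III, stood at 12415, 23981 and 18980.2 TPM, and mt-Co1, the catalytic subunit of complex IV, at 8129, 15182 and 12978 TPM. WT 1 was lowest in both. By contrast, mt-Co2, mt-Atp6 and mt-Co3, which lie on the same polycistronic transcript, had 10.4, 10.3 and 4.11 TPM on average. Nuclear copies of mitochondrial sequence share reads with some of these genes, and the part of read assignment in the low values was not tested, so the total for the mitochondrial genome is uncertain. The 92 nuclear genes of oxidative phosphorylation varied least of all lists between the highest and the lowest library (ratio 1.03), with 1.47%, 1.51% and 1.52% of TPM, led by Cox4i1, a complex IV subunit, at 1350.1, 1346 and 1271 TPM.

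Prostate secretory cells are known for storing zinc and releasing citrate. In the list of 32 genes for these functions, 29 passed 1 CPM in every library, and the zinc-binding metallothioneins Mt2 and Mt1 led with 4381, 4069.5 and 2595 TPM and 4449.6, 3239 and 2166 TPM. Slc30a2, a transporter that moves zinc into vesicles, stood at 212, 141 and 235 TPM. Citrate synthase (Cs) stood at 226, 208 and 239 TPM and varied little among the libraries, whereas Ank, a membrane protein needed for the release of ATP and citrate from cells, was high in WT 1 alone, at 80.4, 4.202 and 6.39 TPM.

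Regulators of prostate identity were present in every library. Hoxb13, a posterior Hox factor of the prostate, stood at 419, 202 and 328 TPM, lowest in WT 2. Foxa1, which opens chromatin for the androgen receptor, stood at 305, 409.6 and 332 TPM and varied less than Hoxb13. Of 50 listed transcription factors 42 exceeded 1 CPM in every library, among them Ehf, an epithelial ETS factor (789.9, 453 and 1243 TPM), Atf4, a factor of the integrated stress response (416, 897 and 398 TPM), and Gata3 (458, 542 and 658 TPM). Ehf was highest in WT 3 and Atf4 in WT 2. Foxq1, Tfcp2l1 and Foxi1 each differed by more than 4-fold between some pair of libraries.

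Genes of the androgen response were nearly all present. Of 24 genes for the receptor and its targets, 23 passed 1 CPM in every library, and Pbsn made up 90.3% of their summed TPM. Tmprss2, a serine protease of luminal cells, stood at 514, 689.8 and 705 TPM, and Fkbp5, a chaperone partner of steroid receptors, at 41.2, 40.9 and 27.9 TPM. By TPM Tmprss2 was lowest in WT 1 with WT 2 and WT 3 close together, whereas by TMM-scaled CPM, at 427, 773 and 573, it had the order of Pbsn, with WT 2 highest. Fkbp5 was lowest in WT 3 on either scale. Folh1, the mouse gene of prostate-specific membrane antigen, was near 0 with 17, 2 and 2 counts.

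The genes at the centre of the study ranged widely in level. Ctnnb1, which encodes β-catenin, stood at 288, 285 and 315 TPM, with an SD of 16.3, and Igf1r, the receptor of insulin-like growth factor 1, at 41.5, 28.6 and 49.3 TPM. Its ligand gene Igf1, which in prostate is known as a stromal product, was lower at 11.4, 3.28 and 6.54 TPM. Osr1, the zinc finger gene whose locus drives Cre, had 84, 38 and 72 counts and 6.56, 2.14 and 4.44 TPM. WT 2 was lowest for Igf1r, Igf1 and Osr1. Reads of the Cre gene and of the reporter have no row of their own in the table and were not analysed here.

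The defining markers of the labelled tissue were present. All 15 luminal genes exceeded 1 CPM in every library, and they summed to 3.205%, 8.43% and 5.85% of TPM, most of it Pbsn. Krt18 and Krt8, the paired keratins of simple epithelium, stood at 1641, 3532 and 1503 TPM and 348, 1349 and 393 TPM, Epcam, an epithelial adhesion molecule, at 699.8, 1459 and 743 TPM, and Krt19 at 637, 3047 and 659 TPM. WT 2 lay well above the others in each of these. Basal genes were far lower, at 0.0377%, 0.0474% and 0.0414% of TPM, with Krt15 at 102, 144 and 134 TPM, Krt5 at 98.9, 32.1 and 102 TPM and Trp63, the basal transcription factor p63, at 9.66, 8.99 and 14.6 TPM.

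Smooth muscle was the most abundant stromal signature. Its 15 genes, all over 1 CPM in every library, took 0.738%, 0.288% and 0.8601% of TPM, with Acta2 at 1710.4, 584 and 1938 TPM, Tagln at 1293, 659 and 1473 TPM and Myh11, smooth muscle myosin, at 682, 256 and 1049.6 TPM. Fibroblast and matrix genes took 0.202%, 0.0820% and 0.150% of TPM, and Dcn, the collagen-binding proteoglycan decorin, led at 614, 507 and 502 TPM. Col1a1, a chain of type I collagen, stood at 70.4, 4.81 and 32.6 TPM. The endothelial list took 0.0143%, 0.004296% and 0.00999% of TPM, with Pecam1 at 18.4, 2.49 and 12.7 TPM. WT 2 was lowest in all 3 lists, although Dcn was nearly level in the libraries and Emcn, an endothelial sialomucin, went the other way at 12.7, 25.01 and 21.5 TPM.

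**Figure D3:**
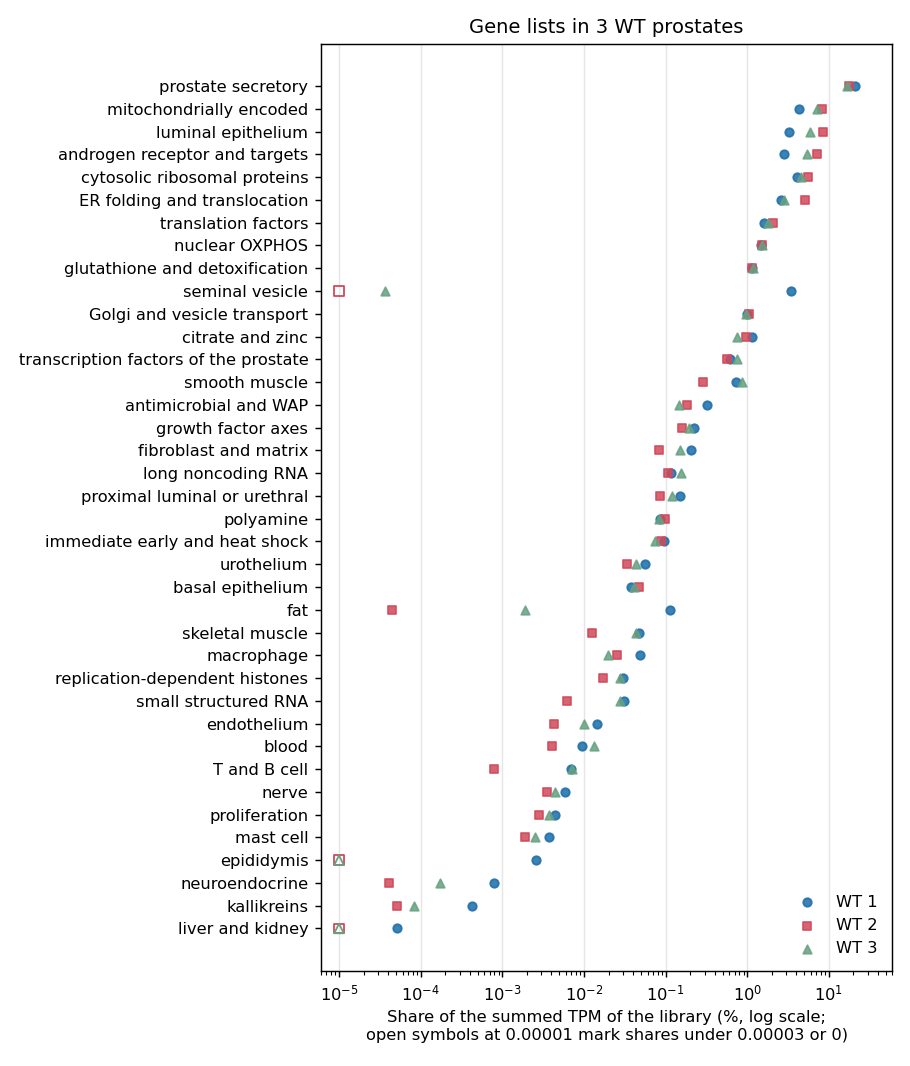
Share of the summed TPM of each WT library (horizontal axis, %, log scale) taken by each gene list, with 1 symbol for each library and open symbols for shares under 0.00003%. Shares run from 21.02% for prostate secretory genes in WT 1 down to 0 for epididymis and for liver and kidney genes in WT 2, and the symbols separate most for seminal vesicle and fat.

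Immune lists took small shares. Macrophage genes took 0.0491%, 0.0254% and 0.0197% of TPM, with Lyz2, lysozyme, at 146, 106 and 55.4 TPM and C1qa, a complement subunit, at 88.8, 32.9 and 36.8 TPM. T and B cell genes took 0.00688%, 0.000797% and 0.00712%, most of it Igj, the joining chain of secreted antibodies, which stood at 43.1, 0.249 and 47.9 TPM and was almost missing in WT 2. Annotated immunoglobulin genes, which are in no list, took more, at 0.117%, 0.00273% and 0.137% of TPM, among them Igkc, the kappa constant gene, at 509, 7.36 and 667 TPM. The mast cell list took 0.00272% ± 0.000946 of TPM. Of 7 neuroendocrine genes, none exceeded 1 CPM in every library, and Chga, the granule protein chromogranin A, had 23, 2 and 13 counts.

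Genes known from neighbouring and distant organs were also read, and the source of their transcripts was not tested. Liver and kidney genes had 5 counts in all, each in WT 1 (3 of Ttr, 1 of Alb and 1 of Slc34a1), and Slc12a1 and Umod had none. Of 8 epididymal genes 5 had no count, while Crisp1, an epididymal sperm protein, had 204, 0 and 0 counts. Upk1b, a uroplakin of urothelium, stood at 303, 302 and 418 TPM, highest in WT 3, but Upk1a, its relative, stood at 219.6, 13.6 and 7.87 TPM, highest in WT 1. Acta1, skeletal muscle actin, stood at 411, 106 and 379 TPM, whereas the fast myosin genes Myh1, Myh2 and Myh4 held at most 46 counts, all but a few in WT 1. Haemoglobin genes were low, with Hbb-b1 at 50.2, 26.3 and 76.4 TPM.

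The libraries agreed unevenly. Across the 11544 genes over 1 CPM in every library, the Spearman correlation was 0.962 between WT 1 and WT 3, 0.938 between WT 2 and WT 3 and 0.906 between WT 1 and WT 2, a description across genes, which are not independent replicates. After scaling by the trimmed mean of M-values (TMM), 96.4% of the genes were within 2-fold between WT 1 and WT 3, 86.4% between WT 2 and WT 3 and 77.9% between WT 1 and WT 2. More than 2-fold apart in either direction were therefore 3.57%, 13.6% and 22.1% of genes. The median absolute log2 difference was 0.28, 0.42 and 0.54 in these pairs. Pairs that include WT 2 differed most.

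**Figure D4:**
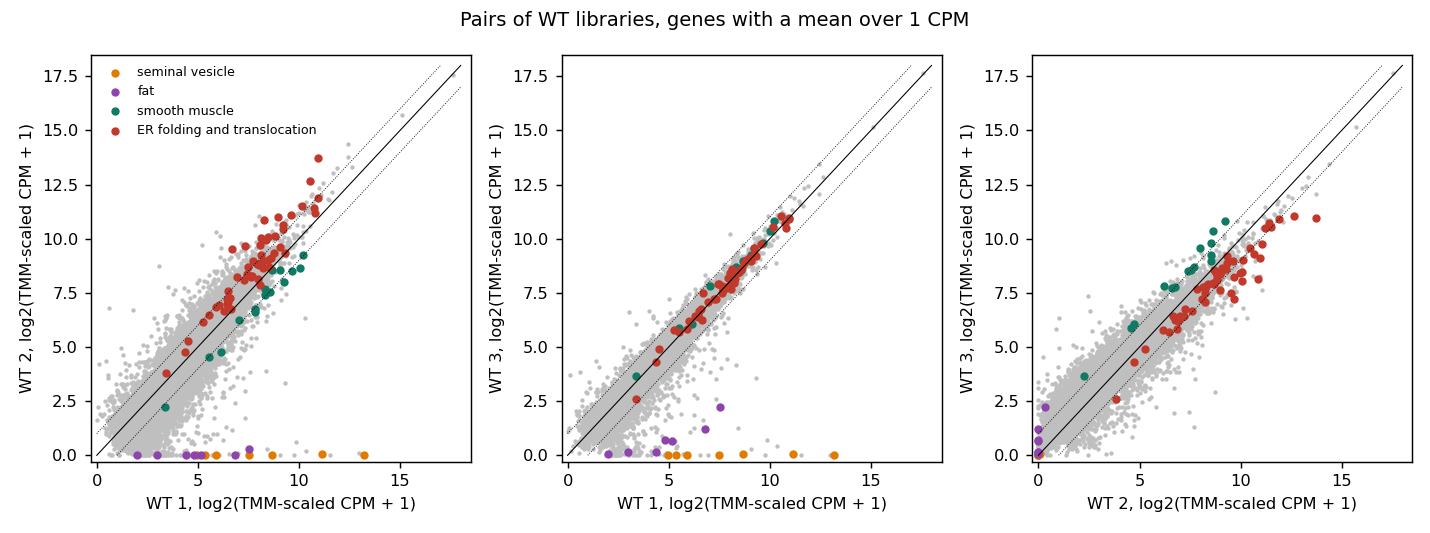
Level of each gene with a mean over 1 CPM in each pair of WT libraries (both axes, log2 of TMM-scaled CPM plus 1), with the line of equality and dotted lines at 2-fold. Coloured points mark seminal vesicle, fat, smooth muscle and ER folding genes, and seminal vesicle genes lie on the floor of WT 2 and WT 3 when set against WT 1, while fat genes are at or near it in WT 2 and low in WT 3.

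The spread had no simple relation to level. The common biological coefficient of variation over the 3 libraries was 0.363 in edgeR with an intercept-only model, and it was 0.263 without WT 2, 0.365 without WT 1 and 0.435 without WT 3. The median coefficient of variation (CV) of a gene was 25.5%, of which counting would give 3.82%. It was 31.6% for the 2988 genes between 1 and 10 CPM, 23.1% for the 6890 between 10 and 100 CPM, 27.4% for the 1616 between 100 and 1000 CPM and 35.4% for the 50 above 1000 CPM. Counting error fell to 0.439% in the last class, far below the spread of these genes. The steadiest genes over 50 CPM were Eif4ebp2, a repressor of cap-dependent translation, with 193, 191 and 194 CPM, Samm50, which inserts proteins into the outer mitochondrial membrane, with 60.2, 61.3 and 60.99 CPM, and Rufy3, Hadh and 1300001I01Rik, with CVs from 0.933% for Eif4ebp2 to 1.36% for 1300001I01Rik. With 3 libraries and this many genes some CVs come out this small, so a low value here does not single these genes out as invariant.

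Genes were then counted that lay more than 2-fold (on log2 of CPM plus 1) above or below both other libraries, among 12818 genes with a mean over 1 CPM. WT 1 was higher for 436 genes (3.4%) and lower for 73 (0.57%), WT 2 higher for 554 (4.32%) and lower for 929 (7.25%), and WT 3 higher for 45 (0.351%) and lower for 66 (0.515%). WT 3 thus stood apart least. The balance in WT 2 depended on the setting. Under total-count scaling 263 genes were higher and 1541 lower, and with a mean over 10 CPM 467 were higher and 382 lower. No test applies to 1 library against 2 of the same group, and these counts are descriptions. The median difference over all these genes was -0.05 for WT 1, 0.04 for WT 2 and -0.01 for WT 3 on the log2 scale.

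The genes that were higher in WT 1 were led by seminal vesicle genes and by members of the prostate secretory list, Sbp and Spink3 among them. Svs2, which encodes the main clotting protein of seminal vesicle fluid and is the substrate of Tgm4, had 226766, 0 and 0 counts in WT 1, WT 2 and WT 3. Sbp, a spermine-binding protein, had 193215, 2 and 0 counts, Spink3, a secreted trypsin inhibitor, 72745, 0 and 0 and Svs5 55536, 1 and 1. These values were near 0 in WT 2 and WT 3 at depths above that of WT 1. All 7 seminal vesicle genes were more than 2-fold higher in WT 1 than in both others, against 3.4% of all genes. The list summed to 1.38% of the counts of WT 1 and to at most 2 counts in either other library. These 7 genes passed the filter on mean CPM only through WT 1, so their number follows from the filter. Since Svs2, Sbp, Spink3 and Svs5 rank among the 20 leading genes by mean TPM, 4 of those means rest on WT 1 alone.

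Further genes followed the same pattern. 5430419D17Rik, Sbpl, Pate4, Spink5, Svs4 and Msmb, which with the 4 above have the largest ratios between libraries among genes with a mean over 10 CPM, had 31364, 4 and 11 counts (5430419D17Rik), 21036, 0 and 0 (Sbpl), 22243, 13 and 19 (Pate4), 12873, 0 and 7 (Spink5), 9881, 0 and 1 (Svs4) and 8182, 6 and 43 (Msmb). Msmb encodes a secreted β-microseminoprotein. Of 17 prostate secretory genes tested, 7 were higher in WT 1, against 3.4% of all genes, and 2 were lower (Pbsn and Spink8), against 0.57%. Sbp, Sbpl, Spink3, Pate4 and Msmb passed the filter on mean CPM only through WT 1, where they were high. The count of higher genes therefore depends on the filter and is a description only. Pbsn lay just past the limit, and 1 gene was lower under total-count and upper-quartile scaling.

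All 7 fat genes were also more than 2-fold higher in WT 1, against 3.4% of all genes, with 6 tested and 6 higher under DESeq2 scaling. They passed the filter on mean CPM largely through WT 1, and 0 of them exceeded 1 CPM in every library. Their number therefore depends on the filter and is a description only. Car3, an adipocyte carbonic anhydrase, stood at 469.5, 0.4504 and 9.71 TPM, Cfd, the adipokine adipsin, at 459.9, 0 and 5.64 TPM and Adipoq, adiponectin, at 75.3, 0 and 1.71 TPM. The order was the same in each, with WT 1 far above WT 3 and WT 2 at or near 0. Of 9 genes of proximal luminal or urethral epithelium, 6 were higher in WT 1, among them Clu, clusterin, at 260.4, 34.6 and 23.9 TPM and Psca, a surface protein of urethral and proximal cells, at 16.2, 0 and 0.581 TPM. Of 19 fibroblast and matrix genes 7 were higher in WT 1, read against the same 3.4%. Among those lower in WT 1 were Aldh1a2, an enzyme of retinoic acid synthesis, at 15.7, 94.7 and 114 TPM and Pnliprp1, a lipase-related secreted protein, at 621, 1958 and 2892 TPM.

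In WT 2 luminal, mitochondrially encoded, ribosomal and ER lists had medians above the others and stromal lists below them. The median difference of WT 2 from the others was 1.27 on the log2 scale over luminal genes, 0.82 over ribosomal proteins and 0.76 over ER genes, against 0.04 over all genes. It was 1.01 over mitochondrially encoded genes, 0.63 over translation factors and 0.59 over Golgi and vesicle transport genes. Only 2 of 83 ribosomal genes were over 2-fold higher in WT 2, against 4.32% of all genes. Basal genes had a median of 0.68 but were split. Of 10 tested, 3 were over 2-fold higher in WT 2 and 1, Krt5, over 2-fold lower, against 4.32% and 7.25% of all genes. The lists of other epithelia lay below 0, at -0.74 over genes of proximal luminal or urethral epithelium and -0.28 over urothelial genes. The median was -1.88 over endothelial, -1.60 over fibroblast and -1.18 over smooth muscle genes. These directions were the same under total-count, upper-quartile and DESeq2 scaling, although total-count scaling moved the median of all genes to -0.28 in WT 2.

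**Figure D5:**
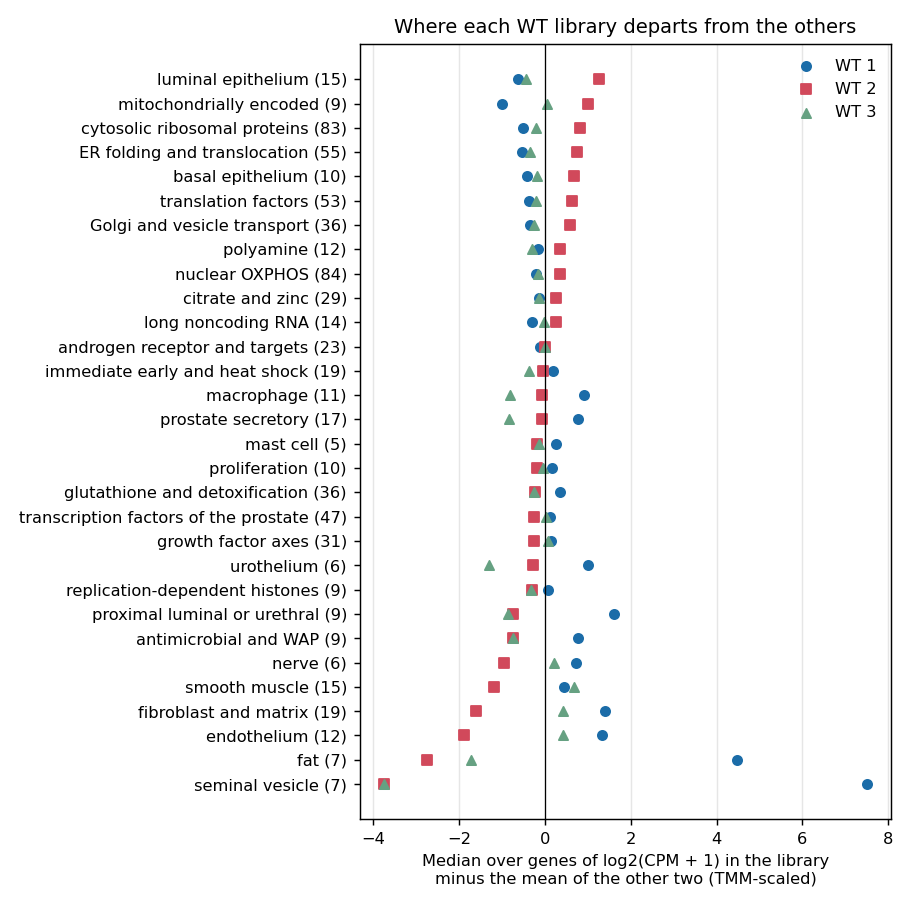
Median over the genes of each list (number tested in brackets) of log2(CPM + 1) in 1 WT library minus the mean of the others, after TMM scaling, for lists with at least 5 genes tested (horizontal axis, log2 units). Seminal vesicle and fat separate WT 1, while stromal lists lie below 0 and luminal, ribosomal and ER lists above 0 in WT 2. Under total-count scaling the sign turns for nuclear OXPHOS (WT 1), long noncoding RNA (WT 2 and WT 3), proliferation (WT 3), citrate and zinc (WT 1 and WT 2), and androgen receptor and targets (all 3), with a turn for immediate early and heat shock genes (WT 2) under DESeq2 scaling.

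In the ER list 15 of 55 genes were more than 2-fold higher in WT 2, against 4.32% of all genes, and none set WT 1 or WT 3 apart. They were Hspa5, Hsp90b1, Pdia4, Creld2, Herpud1, Sdf2l1, Dnajc3, Dnajb9, Manf, Hyou1, Ssr3, Sel1l, Edem1, Syvn1 and Dnajb11. Herpud1, a part of the pathway that removes misfolded ER proteins, stood at 501, 2285 and 471 TPM, Creld2, an ER-resident protein that rises in ER stress, at 763, 2193 and 758 TPM, and Dnajc3, a co-chaperone of Hspa5, at 563, 1176 and 649 TPM. Of the 13 of these genes with a promoter in the RefSeq table, 5 held an ERSE (Hspa5, Hsp90b1, Creld2, Dnajc3 and Syvn1). Of 31 other members with a promoter, 3 did (Calr, Canx and Pdia6). Over all RefSeq promoters the share was 0.113%, counted per promoter and not per gene. These counts were not tested, and no cause is read from them.

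Outside the ER the genes highest in WT 2 were led by Slc7a11, the cystine transporter that feeds glutathione synthesis, with 7.43, 429 and 6.53 TMM-scaled CPM, and Tnfrsf12a, the receptor of the cytokine TWEAK, with 2.44, 104 and 2.84 CPM. Srxn1, which repairs oxidised peroxiredoxins, had 10.4, 216 and 10.4 CPM and Ddit3, the ER stress factor CHOP, 13.7, 196 and 14.98 CPM. In each WT 1 and WT 3 lay close together and far below WT 2. A list of 17 heat shock genes, mainly cytosolic but with the mitochondrial Hspd1 and Hspe1, chosen after values had been seen, summed to 0.281%, 0.991% and 0.321% of counts. All 17 were more than 2-fold higher in WT 2, against 4.32% of all genes, a count that follows from how they were chosen, and 15 were under total-count scaling. Hsph1, an HSP110 co-chaperone, had 58.2, 1273 and 79.2 CPM, and Hsp90aa1, inducible HSP90, 68.5, 1129 and 109 CPM. The luminal genes over 2-fold higher in WT 2 were 6 of 15 (Krt8, Krt18, Krt19, Epcam, Cdh1 and Cldn4), against the same 4.32%, with 5 under total-count and 7 under DESeq2 scaling, while Hoxb13, a factor of the same epithelium, was lowest in WT 2 by TPM.

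The genes that were lower in WT 2 included 12 of 19 fibroblast and matrix genes, 8 of 15 smooth muscle genes and 7 of 12 endothelial genes, against 7.25% of all genes. Over the other scalings the smooth muscle count ran from 6 (DESeq2) to 13 (total-count) and the endothelial count from 7 to 9, while total-count scaling raised the number over all genes from 929 to 1541. Leading examples by margin were Gdpd3, with 52.4, 1.003 and 79.9 CPM, Igkc, the immunoglobulin kappa constant gene, with 43.2, 0.842 and 55.4 CPM, and Vnn1, a pantetheinase, with 114, 4.41 and 161 CPM. Genes lower in WT 2 were long, with a median of 4925 exon bases against 3791 for all genes counted, and had a median GC content of 53.2% against 50.3%, while those higher in WT 2 had 47.3%. The genes higher in WT 2 had a median of 3882.5 exon bases, near that of all genes counted. GC content also departed in sets of other libraries, at 42.5% for genes lower in WT 1 and 45.5% for genes higher in WT 3. The part of gene length and GC content in the differences was not tested.

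WT 3 departed in few genes. In the urothelial list 3 of 6 genes (Upk1a, Upk3b and Krt20) were more than 2-fold lower in WT 3 than in both others, against 0.515% of all genes, and the median difference was -1.30 on the log2 scale. Upk1a lay just past that limit, with 75.5, 6.297 and 2.64 CPM, and under total-count and upper-quartile scaling 2 genes passed it. Upk1b, which made up 76.4% of the list by TPM, was highest in WT 3, and the list as a whole took 0.0564%, 0.0341% and 0.0433% of TPM, lowest in WT 2. Ralgps2 had 15.2, 4.93 and 102 CPM, Col6a4, a collagen VI chain, 7.23, 15.9 and 96.5 and the noncoding Snhg11 20.6, 7.10 and 69.6, all highest in WT 3. Cd59a, a membrane inhibitor of complement, had 131, 124 and 13.3 CPM and Gad2, a glutamate decarboxylase, 18.7, 209 and 1.498, both lowest in WT 3.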

How the data were processed

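Total RNA of fresh prostate tissue was extracted with a column kit, depleted of ribosomal RNA and sequenced as paired ends. Per the submitters' processing notes, reads were trimmed with cutadapt 1.9.1, aligned to mm9 with HISAT2 2.1.0 and counted with HTSeq 0.6.1, and the strand setting and annotation release are not given in the sources used here. The deposited values are raw counts per gene, made by the authors, without normalization. The same table holds the summed exon length of each gene, which is not a measurement and was used for TPM. It has no further columns without a sample (0).

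Only the 3 WT columns were used. Their totals, 21751803 to 29730420 counts, set the precision, and only counting error is covered by limits. CPM was scaled with TMM in edgeR 4.0.16 (R 4.3.3), TPM was computed in Python 3.11.15, log2 values used a prior of 1 CPM, and agreement was described without tests, since 1 group allows no comparison of conditions. edgeR's dispersion step was tested on simulated counts. Of 27036 genes, 26559 matched the mm9 annotation (GENCODE M1) by identifier. Beyond the first row of each symbol, 170 rows repeat a symbol, and 25 symbols had been turned into dates. Both kinds were kept by identifier.

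The genes named are the 20 leading by counts or TPM, leading and absent members of 38 lists and of 1 list (heat shock) added after values were seen, members over 4-fold apart, the largest and smallest ratios, and the genes central to the study. Some genes that this rule names are not reported here. Genes that set 1 library apart were ranked after their values were seen. Members and lists were chosen with earlier results of these data known. Alternatives were TPM, other scalings (upper quartile, DESeq2 1.42.0), other filters, and leaving out genes or libraries. Promoters came from RefSeq (GRCm38.p6), and their coordinates were not mixed with those of mm9.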

Additional observations from a re-analysis of the deposited data

How the results depend on the processing

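No paired analysis was possible because the results come from 1 group and from no test between groups. Without the most abundant gene 763 genes held 50% of counts, in place of 318, and secretory genes took 8.26% of the rest, in place of 26.6%. As a share of TPM the most abundant gene took 5.89% and secretory genes 18.4%. The median Spearman correlation of library pairs was 0.966 over all genes with a count, against 0.938, and the biological coefficient of variation was 0.504 without a filter, against 0.363. Leaving out each library in turn gave correlations of 0.907 to 0.963, 77.9% to 95.9% of genes within 2-fold, a coefficient of variation of 0.263 to 0.435, 306 to 320 genes for 50% of counts, 11591 to 12516 genes over 1 CPM, and shares of 18.95% to 21.8% for the most abundant gene and 25.5% to 27.99% for secretory genes. For genes that set 1 library apart, the alternatives were chosen after seeing the data. With total-count scaling WT 1 was lower for 40 genes, WT 2 higher for 263 and lower for 1541. With a mean over 10 CPM WT 1 was higher for 130, WT 2 higher for 467 and lower for 382, and WT 3 higher for 17 and lower for 31. Of 36 lists, 22 moved by more than their SD as a share of TPM in place of counts, which divides by length. Without WT 1, 6 of them changed by more than 1.5-fold, seminal vesicle from 0.459% to 5.07e-06% of counts, fat from 0.0147% to 0.000355%, epididymis from 0.000423% to 1.68e-06%, and kallikreins, neuroendocrine and liver and kidney genes, which held few counts. Depth limits genes under about 1 CPM.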

Other observations

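Growth factor genes were nearly all present. Of 32 genes of growth factor axes 31 passed 1 CPM in every library, and Egf, epidermal growth factor, which is also a secreted prostate product, led at 575, 574 and 431 TPM in WT 1, WT 2 and WT 3. Erbb3, a relative of its receptor, stood at 87.9, 99.2 and 80.3 TPM and Axin2, a Wnt target gene, at 58.6, 68.1 and 88.3 TPM. Igfbp5 and Igfbp3, which bind insulin-like growth factors, were lowest in WT 2, at 207, 34.0 and 128 TPM and 36.1, 5.71 and 39.3 TPM. In all, 2 of 31 genes tested were more than 2-fold lower in WT 2 than in both others, against 7.25% of all genes, and under total-count scaling the number was 8. Fgf10, a mesenchymal growth factor of prostate ducts, was highest in WT 3, at 7.24, 2.93 and 18.03 TPM.

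Detoxification was carried by few genes. Prdx6, a peroxiredoxin with phospholipase activity, stood at 6623, 7809 and 7763 TPM and made up 64.2% of the summed TPM of 66 detoxification genes, of which 13 had no count in any library. Sod1, cytosolic superoxide dismutase, stood at 756, 839 and 749 TPM, while Gpx3, the secreted glutathione peroxidase, was high in WT 1 alone, at 502, 109 and 109 TPM. In polyamine metabolism Oaz1, the antizyme that restrains ornithine decarboxylase, stood at 241, 139.6 and 171 TPM and its inhibitor Azin1 at 84.2, 314 and 113 TPM, highest in WT 2, while Odc1, ornithine decarboxylase, was level at 62.1, 53.6 and 52.05 TPM.

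Dividing cells left a faint trace, since 12 proliferation genes together took 0.00363% ± 0.000795 of TPM, with Top2a at 10.99, 9.804 and 9.99 TPM and Mki67 at 6.41, 3.99 and 6.25 TPM. Among long noncoding RNA Malat1 stood at 808, 626 and 981 TPM and Neat1, which builds paraspeckles, at 121, 79.3 and 194 TPM. Mir196a-1 reached 303, 52.1 and 271 TPM from 197, 47 and 223 counts, because its annotated length is short, and a TPM of so short a row says little about the mature miRNA in libraries of this kind. A list of immediate early genes, which rise within minutes of stress or handling, and heat shock genes, with Hspa1a and Hspa1b among them, took 0.0957%, 0.0878% and 0.0732% of TPM. Its immediate early members included Jund, at 257, 112 and 111 TPM, and Klf6, at 105, 219 and 93.3 TPM.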
